A study of Mus musculus with 6 samples.

Results

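The genes described here are the 10 that cut, process and rejoin the antigen receptor genes, Rag1, Rag2, Dntt, Lig4, Xrcc4, Xrcc5, Xrcc6, Prkdc, Dclre1c and Nhej1. They were chosen by name for their role in V(D)J recombination and nonhomologous end joining, out of 23183 gene symbols listed for each library. The mRNA-seq data came from double positive (DP) thymocytes, the thymic T cell precursors that carry both CD4 and CD8, which were sorted from 6-week-old C57BL/6 mice. There were 3 libraries from Nsrp1f/f mice (WT) and 3 from Nsrp1f/fCD4Cre mice (NSrp70-cKO, here cKO). NSrp70 is a splicing factor of nuclear speckles, encoded by Nsrp1. All 6 libraries came from mice that carry the floxed Nsrp1 allele, so by genotype the groups differ by the CD4Cre transgene. By Xist and chromosome Y genes the groups also differed in sex (values given further on). Cre under CD4 control acts from the passage between the double negative and the DP stage, and earlier thymocytes keep the gene. The labels do not say whether the libraries of a group came from separate mice, so the p-values measure the spread between these libraries, which may be technical.

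V(D)J recombination builds the T cell receptor genes from separate gene segments. The RAG1 and RAG2 proteins form the recombinase that cuts beside the segments, and in DP thymocytes they rearrange the Tcra locus until a cell is positively selected. The breaks are joined by nonhomologous end joining: the Ku70 and Ku80 dimer (Xrcc6, Xrcc5) binds the ends, DNA-PKcs (Prkdc) activates the nuclease Artemis (Dclre1c), which opens the hairpins, TdT (Dntt) adds nucleotides without a template, and XRCC4, DNA ligase IV (Lig4) and XLF (Nhej1) seal the junction.

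Promoter sequences are shown for 5 of the genes, those that make or diversify the break (Rag1, Rag2, Dntt), the one called lower in cKO (Dclre1c) and one with a large rise (Xrcc4). RefSeq promoters on GRCm38.p6, from 250 bases before to 50 after the annotated start, matched 9 of the 10 genes, with 10 promoters in all because Lig4 has a pair. None was matched for Prkdc. Capitals mark matches, on either strand, to the E-box CANNTG bound by E proteins, the Runx core TGTGGT and the GATA core AGATAA.
Rag1 (chr2:101649483-101649782, minus strand): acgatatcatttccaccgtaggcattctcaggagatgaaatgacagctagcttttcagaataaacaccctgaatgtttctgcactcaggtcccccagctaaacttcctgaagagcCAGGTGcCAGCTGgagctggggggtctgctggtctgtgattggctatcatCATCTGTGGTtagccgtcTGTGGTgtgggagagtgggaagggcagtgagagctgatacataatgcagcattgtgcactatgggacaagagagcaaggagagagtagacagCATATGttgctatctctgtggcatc
Rag2 (chr2:101624462-101624761, plus strand): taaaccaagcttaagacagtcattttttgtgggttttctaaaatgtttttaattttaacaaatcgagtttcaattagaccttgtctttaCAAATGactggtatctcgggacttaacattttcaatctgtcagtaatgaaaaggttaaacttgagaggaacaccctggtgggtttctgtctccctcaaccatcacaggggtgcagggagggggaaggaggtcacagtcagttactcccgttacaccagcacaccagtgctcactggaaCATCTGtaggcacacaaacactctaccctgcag
Dntt (chr19:41029025-41029324, plus strand): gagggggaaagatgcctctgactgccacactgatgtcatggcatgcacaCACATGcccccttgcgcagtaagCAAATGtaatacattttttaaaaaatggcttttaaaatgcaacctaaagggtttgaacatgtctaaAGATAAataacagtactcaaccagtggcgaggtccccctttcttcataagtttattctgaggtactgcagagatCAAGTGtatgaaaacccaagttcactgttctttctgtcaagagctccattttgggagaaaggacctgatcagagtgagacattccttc
Dclre1c (chr2:3423881-3424180, plus strand): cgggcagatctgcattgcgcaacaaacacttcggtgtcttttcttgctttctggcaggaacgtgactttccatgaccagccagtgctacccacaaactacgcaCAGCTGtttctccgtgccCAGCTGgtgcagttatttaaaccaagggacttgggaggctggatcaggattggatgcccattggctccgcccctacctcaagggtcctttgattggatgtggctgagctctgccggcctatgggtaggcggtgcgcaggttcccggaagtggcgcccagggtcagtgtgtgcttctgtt
Xrcc4 (chr13:90089559-90089858, minus strand): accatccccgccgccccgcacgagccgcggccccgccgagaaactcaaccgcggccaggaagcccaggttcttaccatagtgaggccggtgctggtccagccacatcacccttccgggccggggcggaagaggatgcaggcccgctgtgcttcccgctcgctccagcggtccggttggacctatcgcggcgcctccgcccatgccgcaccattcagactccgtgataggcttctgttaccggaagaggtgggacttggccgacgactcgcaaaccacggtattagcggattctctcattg

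The E-box letters occurred in 9 of the 10 promoters, and in 72.3% of all 32851 promoters in the same table. Rag1 had 4 E-box matches, which began at -135, -128, -85 and 26 relative to the start. It also had 2 Runx matches, at -81 and -67, the first of which overlaps the E-box at -85, and it was the 1 promoter of the 10 with the Runx core, which 16.8% of all promoters held. The GATA core was found in 2 of the 10, Dntt at -112 and Nhej1 at -169, against 11.2% of all promoters. The Xrcc4 window held none of the 3 motifs. These matches describe the letters in the windows only.

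Values are given as FPKM (fragments per kilobase of transcript, scaled to library depth), as the authors deposited them. FPKM is scaled to transcript length, so levels can be set side by side between genes. In WT the mean levels ran from Dntt at 1167 and Rag1 at 973, through Xrcc6 at 247 and Rag2 at 55.5, to Dclre1c at 28.3, Xrcc4 at 20.9, Lig4 at 16.8, Nhej1 at 10.4, Xrcc5 at 8.44 and Prkdc at 4.83 FPKM. Nhej1 and Xrcc5 overlapped in WT, from 8.68 to 11.4 and from 7.60 to 9.23 FPKM. Among all 23183 symbols, Dntt ranked between 65 and 73 and Rag1 between 79 and 95 in the 6 libraries, whereas Prkdc ranked between 7168 and 8154. The message of RAG1 was thus far more abundant than that of its partner RAG2, and that of Ku70 far more abundant than that of Ku80.

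In cKO the mean levels of 9 of the 10 genes were higher and that of Dclre1c was lower. In each gene the 3 cKO values did not overlap the 3 WT values. For comparison, the cKO values lay wholly above the WT values in 39.2% and wholly below in 33.3% of the 10326 genes tested. By limma on log2(FPKM + 1), with p-values adjusted over all of those genes by the Benjamini-Hochberg method and a threshold of 0.05, 9 members were called higher and 1 lower, although the sign of Rag1 turned under quantile normalization and that of Prkdc at the same FPKM total (both given further on), and 8 of the 10 were not called with the WT libraries entered as a single sample. Of all genes tested 65.5% were called, 35.8% higher and 29.8% lower, so a called gene was the common case in this comparison. The paper's own test on counts called far fewer genes. The median difference (cKO minus WT, log2 scale) was 0.68 over the 10 members and 0.04 over all genes tested. In bulk RNA such as this, a change in the share of cells that carry a message and a change of its amount per cell cannot be told apart.

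**Figure D1:**
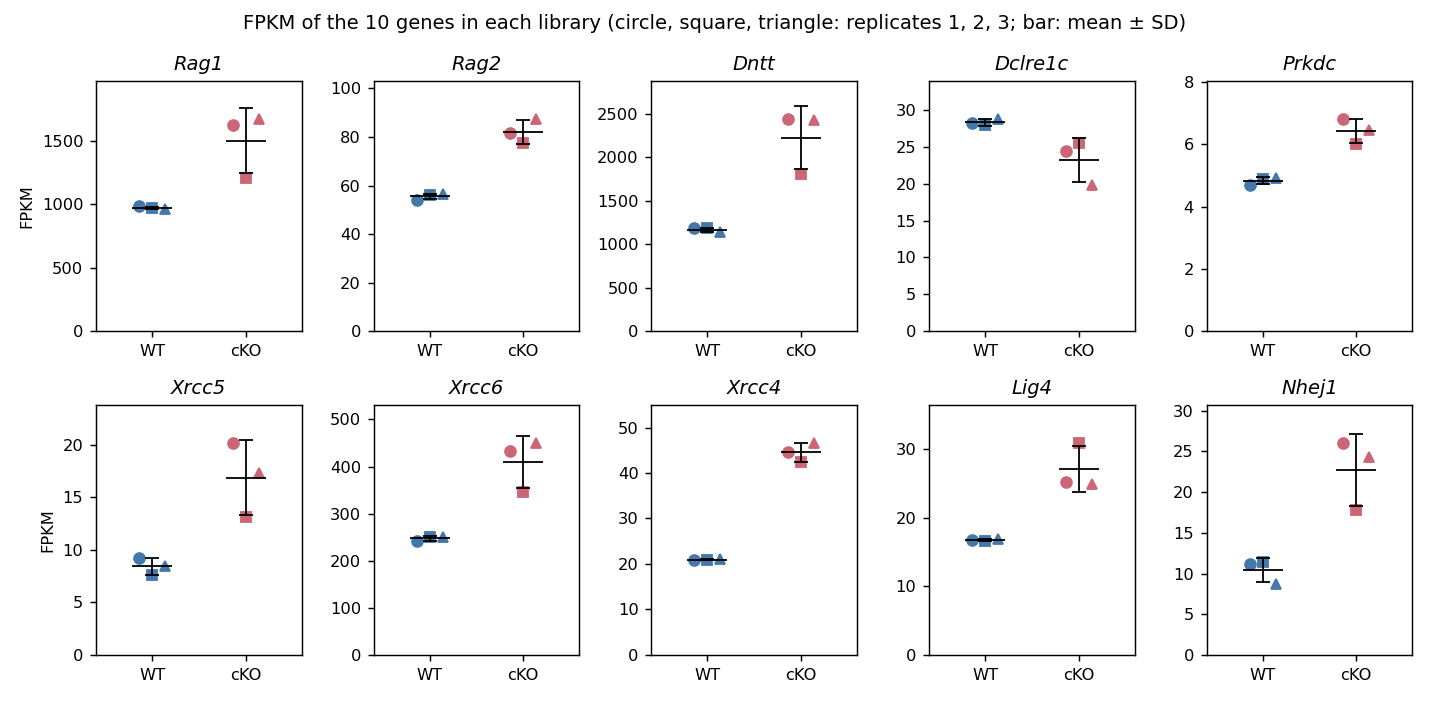
FPKM (vertical axes, each from 0) of the 10 genes in the 3 WT and 3 cKO libraries, with symbols for replicates 1, 2 and 3 and bars for the mean ± SD. WT points lie close together, cKO points are spread, and the 2 groups do not overlap in any panel, with Dclre1c as the panel where cKO is lower.

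Several features of the libraries moved with genotype. Depth, estimated from the steps of 1 fragment in the low FPKM values with an assumed fragment length of 200 nucleotides, was 20.7 to 20.8 M fragments (M, mega) in WT and 13.2 to 20.6 M in cKO. FPKM totals were 521296 to 531517 in WT and 701396 to 850548 in cKO. Pairs of WT libraries differed by a chi-square of 1.50 to 1.61 per gene, where counting noise alone gives about 1, and pairs of cKO libraries by 32.3 to 73.4. Xist was 69.8 to 72.0 FPKM in WT and 4.07 to 5.44 in cKO, and Ddx3y, Eif2s3y, Kdm5d and Uty of chromosome Y were listed at 0 in every WT library and at 5.83 to 43.8 in cKO, so the sex of the mice and the genotype cannot be told apart in any difference given here. Nsrp1, listed under its older symbol Ccdc55, was at 20.2, 20.7 and 21.1 FPKM in WT and at 17.7, 15.8 and 15.0 in cKO, with a log2 difference of -0.34 (standard error 0.077, limma adjusted p = 0.00675).

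The recombinase came first. Rag1 (chr2:101638282-101649501, minus strand of GRCm38) was at 983, 972 and 964 FPKM in WT 1, 2 and 3 and at 1625, 1211 and 1671 in cKO 1, 2 and 3. cKO 2 stood between the WT values and the other two cKO libraries. Its cKO mean of 1502 ± 254 FPKM (SD, n = 3) was 1.54-fold the WT mean of 973 ± 9.76 (SD, n = 3). The log2 difference of Rag1 was 0.61 (standard error 0.15, limma adjusted p = 0.0101) and 0.76 without cKO 2, but -0.18 under quantile normalization. With the WT libraries averaged as 1 sample its adjusted p was 0.237.

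Rag2 (chr2:101624718-101632529, plus strand) lies next to Rag1 in the opposite orientation. It was at 54.1, 56.1 and 56.3 FPKM in WT and at 81.8, 77.5 and 87.3 in cKO, so its cKO libraries stood closer together than for Rag1. Its mean rose from 55.5 ± 1.22 to 82.2 ± 4.93 FPKM (SD, n = 3 each), 1.48-fold. The log2 difference of Rag2 was 0.56 (standard error 0.070, limma adjusted p = 0.000618). It was 0.27 with the correction for GC content and length, and 0.0026 and not called at the same FPKM total (adjusted p = 0.975). The annotated gene B230118H07Rik spans Rag2 on the opposite strand and overlaps Rag1 on the same strand. It was at 7.99 to 8.77 FPKM in WT and at 14.5 to 16.4 in cKO. The libraries are strand-specific, but the strand setting of the counting is not given in the sources used here, so reads of overlapping genes on opposite strands may not have been kept apart.

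Within a library, the ratio of Rag1 to Rag2 does not depend on a single factor that scales that library. It was 18.2, 17.3 and 17.1 in WT and 19.9, 15.6 and 19.1 in cKO. The cKO values lay on both sides of the WT values, and the mean log2 ratio differed by 0.05 (exact two-sided permutation test, p = 0.8, where 3 against 3 libraries cannot go below p = 0.1). The difference was 0.36 with the correction for GC content and length and -0.02 without cKO 1. A difference in the balance of the 2 subunits was thus not detectable with this spread in the uncorrected values. Quantile normalization does not use a single factor. Under it the log2 differences were -0.18 for Rag1 and 0.32 for Rag2, and the ratio was not computed. For RT-PCR of these messages the study used the primers acctttgcatgctcttcgga and agagtcgtagcggaacctct for Rag1 and attcctgctacctcccacct and cccatgcttttccctcgact for Rag2, shown because they mark the stretch of each message that was amplified. They span 190 bp at chr2:101643113-101643302 in exon 2 of 2 of Rag1 and 265 bp at chr2:101629540-101629804 in the last exon of Rag2, both within coding sequence. Each pair lies in a single exon. By RT-PCR in DP thymocytes sorted as CD69-negative or CD69-positive, the paper reports no effect of the cKO on genes linked to particular stages of T cell development. The libraries read here are labelled as DP thymocytes, with no division by CD69. The paper's text does not name the genes of that RT-PCR, so whether Rag1 and Rag2 were among them is not known here.

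Dntt (chr19:41029275-41059525, plus strand), which encodes TdT, was at 1182, 1181 and 1139 FPKM in WT and at 2437, 1804 and 2428 in cKO. Again cKO 2 was the lowest of the 3 cKO libraries, and all 3 were above WT. The mean rose 1.90-fold, from 1167 ± 24.5 to 2223 ± 363 FPKM (SD, n = 3 each), with a log2 difference of 0.91 (standard error 0.16, limma adjusted p = 0.00199). It was 0.35 at the same FPKM total, and 0.09 and not called under quantile normalization (adjusted p = 0.167).

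The messages of the nuclease that opens the hairpin and of its kinase differed in opposite directions by FPKM. At the same FPKM total both log2 differences were below 0 (-0.82 for Dclre1c and -0.13 for Prkdc, the latter not called). Dclre1c (chr2:3424131-3464130, plus strand), the Artemis gene, was at 28.2, 27.9 and 28.7 FPKM in WT and at 24.4, 25.5 and 19.8 in cKO. The mean fell 17.9% below WT in cKO, that is from 28.3 ± 0.419 to 23.2 ± 2.98 FPKM (SD, n = 3 each), and the log2 difference was -0.28 (standard error 0.096, limma adjusted p = 0.0351). This call was lost when any 1 WT library was left out, with adjusted p between 0.0837 and 0.103, and without the filter on low values (adjusted p = 0.0559), with the sign kept in each case. Without cKO 3, the lowest library, the log2 difference was -0.18. Suv39h2, which overlaps Dclre1c on the opposite strand, was at 3.57 to 3.80 FPKM in WT and 3.55 to 3.86 in cKO.

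Prkdc (chr16:15637866-15842235, plus strand) encodes the catalytic subunit of DNA-dependent protein kinase and had the lowest level of the 10. It was at 4.71, 4.88 and 4.91 FPKM in WT and at 6.81, 6.02 and 6.47 in cKO. The mean rose 1.33-fold, from 4.83 ± 0.113 to 6.43 ± 0.394 FPKM (SD, n = 3 each), with a log2 difference of 0.35 (standard error 0.074, limma adjusted p = 0.00508) that turned to -0.13 at the same FPKM total. The ratio of Dclre1c to Prkdc, chosen after the values were seen, was 6.00, 5.72 and 5.85 in WT and 3.58, 4.23 and 3.07 in cKO, with no overlap and a difference of -0.70 in mean log2 ratio. As that ratio was picked for its values, it is given as a description.

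Both Ku genes were higher in cKO, at very different levels. Xrcc6 (Ku70, chr15:81987835-82040085, plus strand) was at 241, 251 and 250 FPKM in WT and at 433, 346 and 450 in cKO. Its mean rose 1.66-fold, from 247 ± 5.21 to 410 ± 55.8 FPKM (SD, n = 3 each), with a log2 difference of 0.72 (standard error 0.12, limma adjusted p = 0.0017). It was 0.19 under quantile normalization, and 0.16 and not called at the same FPKM total (adjusted p = 0.0873). Desi1, which lies within Xrcc6 on the opposite strand, went from 120 to 123 FPKM in WT to 72.4 to 77.0 in cKO.

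Xrcc5 (Ku80, chr1:72307421-72394952, plus strand) was at 9.23, 7.60 and 8.50 FPKM in WT and at 20.2, 13.1 and 17.4 in cKO. Its mean was 2.00-fold that of WT, at 16.9 ± 3.55 against 8.44 ± 0.813 FPKM (SD, n = 3 each), and the log2 difference was 0.91 (standard error 0.15, limma adjusted p = 0.00205). Its spread in WT was among the widest of the 10, and it rests on an estimated 372 to 710 fragments per library. The proteins form a 1 to 1 dimer, but the ratio of Xrcc6 to Xrcc5 FPKM was 26.2, 33.0 and 29.4 in WT and 21.5, 26.3 and 25.9 in cKO. These values overlapped (26.2 in WT 1 and 26.3 in cKO 2), and the difference of -0.26 in mean log2 ratio gave p = 0.2 by the exact two-sided permutation test. It was -0.17 without cKO 1, and with the correction for GC content and length its sign turned, to 0.22.

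Of the ligation complex, Xrcc4 and Nhej1 had the 2 largest log2 differences of the 10 genes, but with the correction for GC content and length Xrcc6 had the largest (0.87), with Xrcc4 at 0.79 and Nhej1 at 0.54. Xrcc4 (chr13:89774027-90089608, minus strand), the scaffold of DNA ligase IV, was at 20.9, 20.8 and 21.0 FPKM in WT and at 44.6, 42.5 and 46.6 in cKO. Both groups were tight, and the mean rose 2.13-fold, from 20.9 ± 0.121 to 44.6 ± 2.06 FPKM (SD, n = 3 each). Its log2 difference of 1.05 (standard error 0.063) had the smallest adjusted p of the 10 (9.14e-05, limma). Tmem167, which overlaps the start of Xrcc4 on the opposite strand, was at 6.49 to 6.60 FPKM in WT and 7.02 to 9.36 in cKO.

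Nhej1 (chr1:74967139-75125200, minus strand), which encodes XLF, was at 11.2, 11.4 and 8.68 FPKM in WT and at 26.1, 17.8 and 24.3 in cKO. WT 3 was lower than the other two WT libraries, and cKO 2 lower than the other two cKO libraries. The mean rose 2.18-fold, from 10.4 ± 1.50 to 22.7 ± 4.37 FPKM (SD, n = 3 each), with a log2 difference of 1.05 (standard error 0.16, limma adjusted p = 0.00137). This gene rests on the fewest fragments of the 10, an estimated 153 in WT 3, for which the counting error alone is 8.08%. Lig4 (chr8:9969049-9977686, minus strand) was at 16.7, 16.7 and 17.0 FPKM in WT and at 25.3, 31.0 and 25.0 in cKO. Here cKO 2 was the highest, unlike in 8 of the 10 genes, where it was the lowest of the cKO libraries. cKO 2 also had the lowest FPKM total of the cKO libraries (701396). The share of all genes that were lowest in cKO 2 was not counted. The mean of Lig4 rose 1.61-fold, from 16.8 ± 0.175 to 27.1 ± 3.36 FPKM (SD, n = 3 each), with a log2 difference of 0.65 (standard error 0.089, limma adjusted p = 0.000822). At the same FPKM total it was 0.12 and not called (adjusted p = 0.493).

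The ratio of Xrcc4 to Lig4, the scaffold to its enzyme, was 1.25, 1.25 and 1.24 in WT and 1.76, 1.37 and 1.86 in cKO. All cKO values were above all WT values, with a difference of 0.41 in mean log2 ratio, and p = 0.1 by the exact two-sided permutation test is the smallest that this design can give. With the correction for GC content and length the difference was 0.27. Across the 3 ratios set by partnership, that of Xrcc4 to Lig4 was the one without overlap between the groups. Of the single genes tested, 72.5% had the 3 cKO values on one side of the 3 WT values. The share over ratios of other gene pairs was not counted, so the lack of overlap does not set this pair apart.

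**Figure D2:**
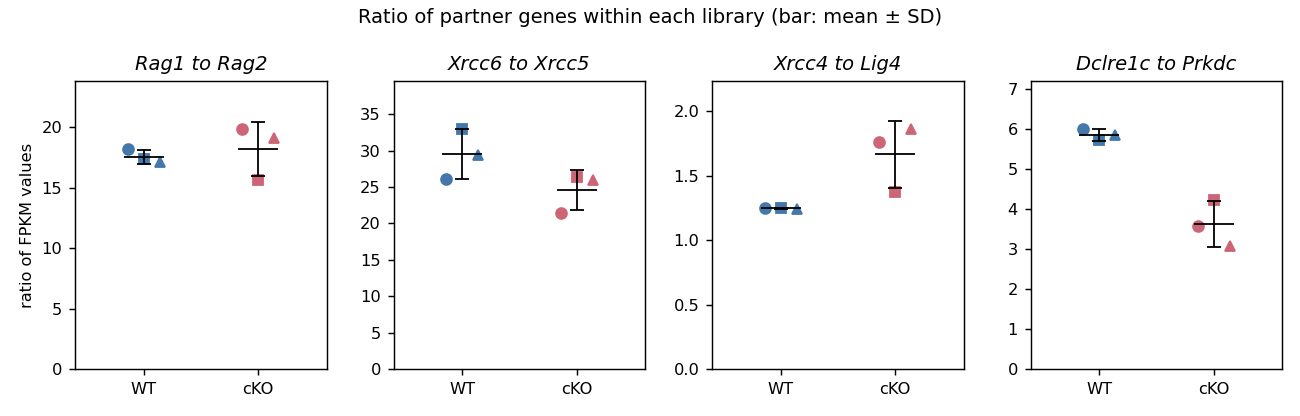
Ratio of the FPKM values of partner genes within each library (vertical axes from 0), with symbols for replicates 1, 2 and 3 and bars for the mean ± SD. The ratio of Rag1 to Rag2 and that of Xrcc6 to Xrcc5 overlap between WT and cKO, and those of Xrcc4 to Lig4 and Dclre1c to Prkdc do not.

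The order of the levels changed in its middle. In cKO, Xrcc4 at 44.6 and Lig4 at 27.1 FPKM stood above Dclre1c at 23.2, whereas in WT Dclre1c was the highest of these 3. Lig4, Dclre1c and Nhej1 overlapped in cKO (25.0 to 31.0, 19.8 to 25.5 and 17.8 to 26.1 FPKM), and Nhej1 also overlapped Xrcc5. The coefficient of variation between libraries was higher in cKO than in WT for 10 of 10 members. It was 16.9% against 1.00% for Rag1 and 4.63% against 0.577% for Xrcc4. Pairs of cKO libraries also differed more than pairs of WT libraries by chi-square per gene (32.3 to 73.4 against 1.50 to 1.61). The share of all genes with a higher coefficient in cKO was not counted, so 10 of 10 does not set the members apart.

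How the libraries were scaled decided part of the picture. The FPKM totals of the cKO libraries were higher, and setting all totals equal put the median log2 difference of all genes tested at -0.45, against 0.04 before. Under that scaling 4 members were called higher (Dntt, Xrcc4, Xrcc5 and Nhej1), Dclre1c was called lower and 5 were not called, against 68.6% called among all genes, 8.74% higher and 59.9% lower. The 5 not called had log2 differences of 0.05 for Rag1 (adjusted p = 0.634), 0.0026 for Rag2 (0.975), 0.12 for Lig4 (0.493), 0.16 for Xrcc6 (0.0873) and -0.13 for Prkdc (0.247, limma). Of the 5 called, Nhej1 was at 0.52, Xrcc4 at 0.51, Xrcc5 at 0.39, Dntt at 0.35 and Dclre1c at -0.82. Relative to the median of all genes under the same scaling, Rag1 stood at 0.50, Rag2 at 0.46, Prkdc at 0.33, Xrcc4 at 0.97 and Dclre1c at -0.37. This scaling shifts all genes of a library alike, so such relative values return nearly those of the first comparison by construction.

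Quantile normalization, which gives every library the same distribution of values, bore on the most abundant messages. Rag1 then had a log2 difference of -0.18 and was called lower (limma adjusted p = 0.0358), and Dntt had 0.09 and was not called (adjusted p = 0.167). Xrcc6 was at 0.19 (adjusted p = 0.0321) and Rag2 at 0.32 (adjusted p = 0.00167), whereas Xrcc4 at 0.96, Nhej1 at 1.04, Xrcc5 at 0.92 and Lig4 at 0.62 differed little from the first fit. In all, 7 members were called higher and 2 lower, and of all genes 63.1% were called, 33.7% higher and 29.4% lower. This method sets each value from its rank within the library, and Rag1 ranked 79 to 81 in WT and 88 to 95 in cKO.

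With a correction of each library for GC content and transcript length, 9 members were called higher and 1 lower, and of all genes 57.1% were called, 30.0% higher and 27.2% lower. Rag2 moved to 0.27 and Nhej1 to 0.54 on the log2 scale. When the 3 WT libraries were averaged and entered as a single sample, because they differed so little, 2 members were called (Xrcc4 with adjusted p = 0.0294 and Nhej1 with 0.0405, limma), both higher, against 15.9% called among all genes, 7.21% higher and 8.73% lower. With the replicate number as a block, 9 members were called higher and 1 lower, and 62.6% of all genes, 34.0% higher and 28.6% lower. Xrcc4 and Nhej1 were the members called higher in each of these 6 fits.

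**Figure D3:**
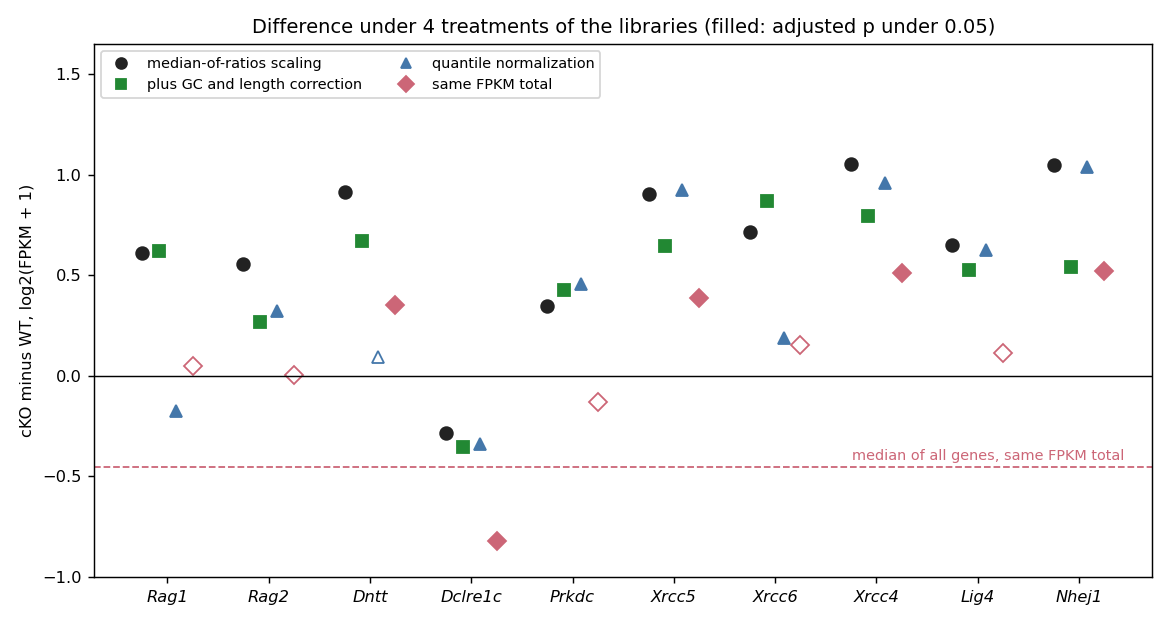
Difference between cKO and WT in log2(FPKM + 1) (vertical axis) for each gene under median-of-ratios scaling, with GC and length correction, with quantile normalization and at the same FPKM total, where filled symbols had a limma adjusted p under 0.05 and the dashed line is the median of all genes at the same FPKM total. Dclre1c is below 0 under all 4, Xrcc4, Xrcc5 and Nhej1 are above 0 and called under all 4, and Rag1 and Prkdc each fall on both sides of 0.

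Markers of other cells and states were read beside these values. Of all genes tested, 65.5% were called, 35.8% higher and 29.8% lower. All 10 cycling markers were called higher in cKO, with a summed level of 1045 to 1052 FPKM in WT and 2151 to 2418 in cKO and a median log2 difference of 1.12, and their part in the members' differences was not tested. Of 9 markers of mature single positive thymocytes, which have ended recombination, 7 were called lower and 2 higher. Their sum was 374 to 380 FPKM in WT and 358 to 426 in cKO. Among them Ccr7 was at 15.1 to 16.2 FPKM in WT and 1.16 to 2.50 in cKO, and S1pr1 at 4.11 to 4.79 and 0.133 to 0.203, and their part was not tested either. The 6 markers of double negative thymocytes summed to 9.03 to 9.63 FPKM in WT and 5.02 to 6.60 in cKO.

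Of the 8 markers of DP thymocytes all were present, with a sum of 3540 to 3573 FPKM in WT and 4420 to 5634 in cKO, which goes with the labelled cell type in all 6 libraries. Of these, 4 were called higher (Cd4, Cd8a, Cd8b1 and Themis, of which Cd4, Cd8a and Cd8b1 turned negative under quantile normalization and Cd4 and Themis at the same FPKM total), 2 were called lower, and Cd3e and Ptcra were not called. Among all genes tested, 35.8% were called higher and 29.8% lower, so this split does not set the DP markers apart. B lineage cells also express Rag1, Rag2 and Dntt. Their 8 markers summed to 24.9 to 26.3 FPKM in WT and 28.2 to 41.1 in cKO, nearly all of it Cd79b, with Ms4a1, Pax5 and Ebf1 below 1 FPKM in every library. The 4 erythroid markers summed to 1.96 to 2.72 FPKM in WT and 12.3 to 26.6 in cKO, the 8 myeloid ones to 17.5 to 19.1 and 12.1 to 14.3, and the 5 of thymic epithelium to 3.56 to 3.98 and 1.92 to 3.67, with Krt5 and Foxn1 listed at 0 everywhere.

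Transcription factors that act on Rag1 and Rag2 in lymphocytes, or that shape the DP stage, were taken as a list of 16. Of these, 11 were called lower, 1 higher and 4 were not called, where 65.5% of all genes were called, 29.8% lower and 35.8% higher. The median log2 difference was -0.45, against 0.04 over all genes tested. The lower ones with the largest differences were Lef1 at -0.89 (limma adjusted p = 0.000166), Tcf3 at -0.71 (0.000497), Foxo1 at -0.61 (0.00103) and Myb at -0.59 (0.00431). Lef1 encodes a partner of TCF1, Tcf3 the E protein E2A, Foxo1 a forkhead factor and Myb a factor needed for DP survival.

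Lef1 was at 158, 151 and 157 FPKM in WT and at 77.4, 89.6 and 83.4 in cKO. Tcf3 was at 80.3, 81.8 and 79.5 FPKM in WT and at 46.9, 55.3 and 45.4 in cKO, and with the correction for GC content and length its log2 difference was -0.19 and was not called (adjusted p = 0.123). Tcf12, which encodes the E protein HEB, was the gene called higher, at 130 to 132 FPKM in WT and 160 to 163 in cKO with a log2 difference of 0.30 (limma adjusted p = 0.00486), a sign that turned under quantile normalization (-0.10) and at the same FPKM total (-0.26). Runx1, Ets1, Id2 and Id3 were not called, at log2 differences of 0.0096, -0.14, -0.47 and -0.07. Rag1 and Rag2 were higher by FPKM in the libraries where most factors on this list were lower. This contrast depended on the scaling. Under quantile normalization Rag1 was called lower (-0.18) and Rag2 higher (0.32). At the same FPKM total neither was called (0.05 for Rag1 and 0.0026 for Rag2). Under quantile normalization, 12 of the 16 factors were called lower, with 29.4% of all genes, and at the same FPKM total 16 of 16, with 59.9% of all genes.

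**Figure D4:**
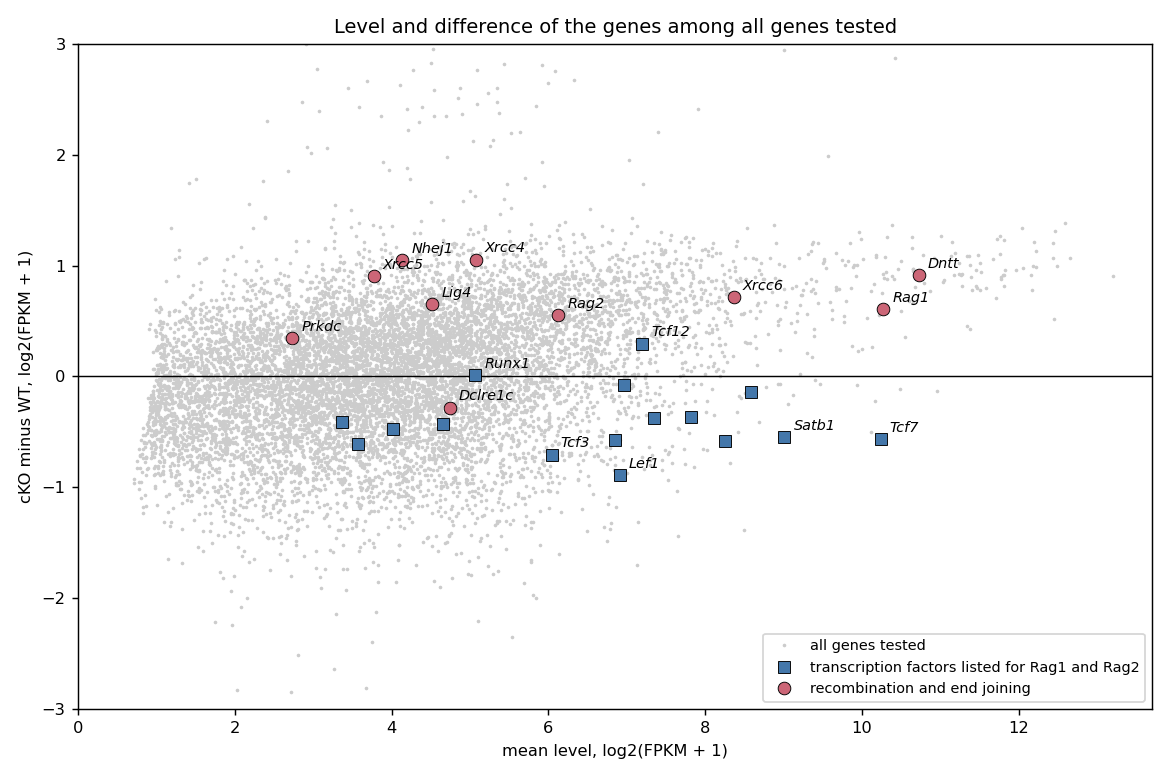
Difference between cKO and WT in log2(FPKM + 1) (vertical axis) against the mean level, log2(FPKM + 1) (horizontal axis), for all 10326 genes tested (grey), the 10 genes of recombination and end joining (circles) and the 16 listed transcription factors (squares), with 15 grey genes beyond the limits of 3 and -3 not drawn. Of the circles 9 lie above 0 and Dclre1c below (under quantile normalization Rag1, and at the same FPKM total Prkdc, also fell below 0), whereas of the 16 squares 11 were called lower and 1, Tcf12, higher.

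Other factors of end joining were read from a list of 28, of which 26 were matched in the files and 25 passed the filter on low values (Poll did not, and Paxx and Shld3 were not analysed here). Of the 25, 13 were called higher, 5 lower and 7 were not called, where 65.5% of all genes were called, 35.8% higher and 29.8% lower. The median log2 difference was 0.24, against 0.04 over all genes tested. The largest rises were in Hmgb2 at 1.11 (limma adjusted p = 0.00037), Tdp1 at 0.88 (0.000283), Nbn at 0.87 (0.000146) and Hmgb1 at 0.84 (0.000527). HMGB1 and HMGB2 bend DNA for the recombinase, TDP1 cleans blocked ends and NBN belongs to the MRE11 complex that senses breaks. Hmgb1 was at 811, 814 and 835 FPKM in WT and at 1414, 1441 and 1547 in cKO, and under quantile normalization its log2 difference was 0.13 and was not called (adjusted p = 0.267). Hmgb2 was at 397, 403 and 397 FPKM in WT and at 730, 919 and 952 in cKO.

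The other members of the MRE11 complex were also higher, with Mre11a at 10.8 to 11.3 FPKM in WT and 17.6 to 19.0 in cKO, and Rad50 at 8.82 to 9.20 and 12.6 to 13.8, although at the same FPKM total the log2 difference of Rad50 was -0.0070. The lower ones with the largest differences were Polm at -0.91 (limma adjusted p = 0.000217), Parp3 at -0.63 (0.00114), Cyren (listed as 3110062M04Rik) at -0.50 (0.00429) and H2ax (listed as H2afx) at -0.22 (0.0375), of which H2ax was not called with the correction for GC content and length (-0.05). Polm encodes the end joining polymerase mu, a relative of TdT, and was at 6.11, 6.74 and 6.74 FPKM in WT and at 2.76, 3.33 and 2.94 in cKO. Dntt and Polm thus differed in opposite directions. Atm, Mdc1, Trp53bp1, Mad2l2, Fam35a (Shld2), Ercc6l2 and Tdp2 were not called, and the kinase gene Atm was at 5.01 to 5.33 FPKM in WT and 5.63 to 5.92 in cKO. At the same FPKM total the list gave 4 higher and 12 lower calls, with 8.74% higher and 59.9% lower among all genes.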

How the data were processed

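The authors prepared poly(A)-selected, strand-specific libraries from sorted DP thymocytes, mapped paired-end reads to mm10 with TopHat and deposited FPKM values from Cufflinks, 1 per gene symbol and library. Versions, annotation and strand setting are not given in the sources used here. The authors tested counts with DESeq2, which FPKM does not allow, so that test was not repeated. At the same adjusted threshold, the paper reports far fewer changed genes from it than the 6766 called here by limma. More of those in the paper were higher than lower in cKO.

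Libraries were scaled by size factors from median ratios (1.00 to 1.01), and log2(FPKM + 1) of the 10326 genes at FPKM 1 or more in at least 3 libraries was fitted by genotype with limma 3.58.1 (lmFit, eBayes with trend) in R 4.3.3, with Benjamini-Hochberg adjustment over all of them. The pseudocount of 1 understates changes of low genes. The procedure was tested on simulated data. Ratios were compared by exact two-sided permutation tests (Python 3.11.15, scipy 1.17.1), and figures were drawn with matplotlib 3.10.9. Fragments per gene were estimated from FPKM, depth and the longest transcript. Coordinates come from GENCODE on GRCm38, the assembly of mm10.

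Groups and replicate numbers came from the labels. Same-numbered WT and cKO libraries did not deviate together (r = -0.022, 0.038 and 0.031), so the numbers were not taken as pairs. The members and lists were chosen with earlier results of these data known. Besides the members, the targeted gene and the marker and sex check genes, named genes were, from each list, up to 4 per direction with the largest log2 difference among those called without overlap between the groups, list genes not called, and the 3 genes most like Rag1, Rag2 and Dntt. Mre11a and Rad50, and genes that overlap members, were named after their values were seen. Some genes named by this rule are counted but not reported singly here. Alternatives covered pseudocount, filter, scaling, trend, the replicate block, GC content and length, WT as 1 sample, and each library left out.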

Additional observations from a re-analysis of the deposited data

How the results depend on the processing

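Over 170 alternative values of the 10 members, 151 kept their sign and side of the threshold, 17 lost the threshold and 2 changed sign, Rag1 under quantile normalization (-0.18) and Prkdc at the same FPKM total (-0.13). At the same FPKM total 5 members were called. With the WT libraries as 1 sample the calls were 2 of the members, 5 of the accessory end joining list, 2 of the transcription factors, 8 of the alternative and homologous repair list and 1645 of all genes (6766 before), a fit with fewer samples. Leaving out 1 library gave 9 to 10 members and 5585 to 7667 of all genes called. The log2 ratio of Rag1 to Rag2 (0.05) was 0.36 with the correction for GC content and length and ran from -0.021 (without cKO 1) to 0.15 with 1 library left out, and that of Xrcc6 to Xrcc5 (-0.26) was 0.22 with the correction. The cause of these changes was not tested. Over all genes the split between higher and lower calls was 902 to 6181 at the same FPKM total, against 3693 to 3073. The replicate block left 10 members called and 6467 of all genes, changed no call of a member, and took the lower calls of the accessory end joining list from 5 to 3, H2ax among those lost (limma adjusted p = 0.0899). The FPKM values give no counts, so estimated fragments limit Nhej1 and Xrcc5 most.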

Other observations

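Genes of alternative end joining and homologous recombination, the other routes of break repair, were read as a list of 18, all of which were tested. Of these, 13 were called higher in cKO by limma, 2 lower and 3 not, where 65.5% of all genes were called, 35.8% higher and 29.8% lower. The median log2 difference was 0.57, against 0.04 over all genes tested. Among the rises were Fen1 at 1.03 (limma adjusted p = 0.00104), Blm at 0.99 (0.000165) and Exo1 at 0.89 (0.000199). Fen1, a flap endonuclease, was at 39.6, 39.1 and 40.0 FPKM in WT and at 87.3, 64.2 and 98.0 in cKO. Xrcc3, a gene of homologous recombination, fell from 8.35, 8.15 and 8.65 FPKM in WT to 4.46, 4.61 and 3.76 in cKO (log2 difference -0.83, limma adjusted p = 0.0003), and Parp1 had -0.33 (0.011), which was not called with the correction for GC content and length (-0.16). Xrcc1, Palb2 and Bard1 were not called. Many genes of this list are expressed in S phase, the cycling markers were higher in the same libraries, and their part was not tested. At the same FPKM total the list gave 6 higher and 5 lower calls, with 8.74% higher and 59.9% lower among all genes.

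Over the 6 libraries, the genes most like Rag1 by Pearson's r of log2(FPKM + 1) among the 10325 other genes tested were Mrto4, Pola2 and Atg101. Those most like Rag2 were Cdk4, Nmral1 and Uqcr11, and those most like Dntt were Commd3, Eif3i and Hn1, each with r above 0.999. Rag2 stood at place 1453 among the genes most like Rag1 (r = 0.950), and Xrcc6 at place 120 among those most like Dntt (r = 0.996). With 6 libraries in 2 groups, r follows mainly the difference between the genotypes and the position of cKO 2, and is given as a description. The 7 T cell receptor constant region genes were not analysed here.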
